A study of Mus musculus with 6 samples.

Results

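The genes described here are 53 genes of mitosis and the spindle, out of 54453 genes in the deposited tables. They were taken by symbol from a list of cyclins, kinases, checkpoint proteins, kinetochore parts, kinesins, condensins and cytokinesis factors. That list was chosen with earlier results of these data known. Each of the 53 symbols matched a single Ensembl identifier, and all 53 genes passed the low-count filter that left 14169 genes to test. The samples were 6 mRNA libraries from mouse pancreatic ductal adenocarcinoma (PDAC) organoids, epithelial tumour cultures grown in Matrigel, which the labels call KPC lines with the genotype KPF/FC and do not explain further. Each of 3 lines, T91 (female, passage 10), T118 (male, passage 11) and T113 (male, passage 13), carried a control hairpin (shRNA) against Renilla luciferase or hairpin #5523 against Scrib, which encodes a scaffold protein of cell polarity. This gave 3 libraries per hairpin and 1 library per line and hairpin. A single Scrib hairpin was used, so that loss of Scrib and any other effect of this hairpin cannot be told apart. The labels name viral infection in one field and plasmids in another as the means of delivery, and organoids without a hairpin are not among these samples.

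Transcripts of mitotic genes accumulate in G2 and M phase, when chromosomes condense, attach to the spindle and separate, and most are low in resting cells. Cyclin B with Cdk1 drives entry into mitosis, the spindle checkpoint restrains the anaphase-promoting complex until chromosomes are attached, and kinesins, kinetochore proteins and passenger proteins move and anchor them. Many of these genes are controlled by complexes built on the MuvB core, which binds the cell cycle genes homology region (CHR) in promoters and works with B-MYB (encoded by Mybl2) and Foxm1, and by NF-Y, which binds CCAAT boxes. In bulk RNA, more cells in mitosis and more mitotic mRNA per cell cannot be told apart.

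Promoters are shown first because these motifs do not depend on the expression measured here. Each occurred in most, though not all, of the promoters found. RefSeq promoter windows on GRCm38.p6, from 250 bases before to 50 bases after a start, were found for 45 of the 53 genes, in 47 windows. The CHR core TTTGAA, searched on both strands, occurred in 33 of 47 windows (70.2%). It occurred in 17.9% of all 32851 windows of that length, in 12.2% of the windows of genes tested here and in 13.2% of 38 windows of DNA replication and S-phase genes. CCAAT, on both strands, occurred in 34 of 47 windows (72.3%), against 37.4% of all windows, 38.3% of those of tested genes and 60.5% of those of replication genes. Both motifs stood in 29 windows of mitotic genes (61.7%, against 6.95% of all windows), and their letters overlapped in 1 of these. At least 2 CCAAT matches were found in 21 windows (44.7%, against 11.7% of all). Of 40 TTTGAA matches in the 47 windows, 30 began within 50 bases of the annotated start. The 6 examples, chosen after their expression values were seen, run from promoters with both motifs to a promoter with neither. Each line gives the 150 bases before the start, 5′ to 3′ along the gene's strand, with TTTGAA and CCAAT matches on either strand in capitals.
Cdk1 (chr10:69352913-69353062, minus strand): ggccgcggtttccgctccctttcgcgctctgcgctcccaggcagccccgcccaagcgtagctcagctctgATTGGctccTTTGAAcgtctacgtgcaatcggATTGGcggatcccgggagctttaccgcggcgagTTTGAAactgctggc
Cdc20 (chr4:118437344-118437493, minus strand): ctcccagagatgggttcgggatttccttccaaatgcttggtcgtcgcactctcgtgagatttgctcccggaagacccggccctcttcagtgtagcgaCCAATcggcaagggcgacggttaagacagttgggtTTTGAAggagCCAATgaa
Ube2c (chr2:164769779-164769928, plus strand): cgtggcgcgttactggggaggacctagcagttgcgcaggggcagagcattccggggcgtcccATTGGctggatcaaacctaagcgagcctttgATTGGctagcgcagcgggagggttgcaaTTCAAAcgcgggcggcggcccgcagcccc
Top2a (chr11:99024190-99024339, minus strand): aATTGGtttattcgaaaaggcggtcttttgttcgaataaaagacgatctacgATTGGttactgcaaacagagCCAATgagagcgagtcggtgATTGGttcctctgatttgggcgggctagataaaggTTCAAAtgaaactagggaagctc
Aurka (chr2:172370571-172370720, minus strand): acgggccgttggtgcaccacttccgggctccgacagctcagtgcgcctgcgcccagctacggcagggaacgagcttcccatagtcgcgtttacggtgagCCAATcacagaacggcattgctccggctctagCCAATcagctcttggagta
Birc5 (chr11:117849087-117849236, plus strand): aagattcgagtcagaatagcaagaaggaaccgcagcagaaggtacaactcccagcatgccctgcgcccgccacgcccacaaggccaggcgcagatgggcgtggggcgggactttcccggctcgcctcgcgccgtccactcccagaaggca
In the stretches shown, Cdk1 had 2 TTTGAA and 2 CCAAT matches, Cdc20 and Ube2c each had 1 and 2, and Top2a had 1 and 4. Aurka had 2 CCAAT matches there, and its TTTGAA match lay 32 bases after the start. The Birc5 window held neither motif, which says only that these letters are absent from it. A match is a description and not a binding site.

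Libraries held 24035265 to 36235481 estimated counts, so that 1 count was worth 0.0276 to 0.0416 CPM, the unit used here for a gene's count scaled to a common library size. The target, Scrib, was at 177, 157 and 158 CPM with the Renilla hairpin in T91, T113 and T118 and at 29.7, 34.99 and 30.04 CPM with the Scrib hairpin, without overlap (log2 fold change -2.38, adjusted p of 0.00582 by edgeR's quasi-likelihood test). Epithelial markers were abundant in each library, with a list of 8 that included Epcam and Krt19 summing to between 7477 and 12716 CPM. The T91 library with the Scrib hairpin stood apart in transcript length: over 12257 protein-coding genes, the difference of its log2 CPM from the mean of the other libraries had a Spearman correlation of -0.389 with the length of the longest annotated transcript, and the same value for the other libraries lay between -0.168 and 0.222. The same library had the highest sums of 10 fibroblast markers (7.91 CPM, against 1.204 to 2.25 CPM in the others) and of 10 immune markers (6.41 CPM, against 2.28 to 4.60 CPM). Results are therefore given by line and also without T91.

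Mitotic genes lay slightly above their controls with the Scrib hairpin, in nearly all genes of T113 and T118 and in a smaller majority in T91. The fitted log2 fold change was above 0 for 52 of 53 genes, where 48.2% of all genes tested were above 0, and its median was 0.17, against -0.01 over all genes. Of 9107 genes within the same range of average level, 4738 were above 0, with a median of 0.01. The 53 genes come from the same 6 libraries and many vary together, so they are not 53 separate observations. Single values ran from -0.00 for Cdc25b to 0.28 for Mybl2, and 13 genes reached 0.2. No mitotic gene passed an adjusted p of 0.05 in edgeR's test, which called 0.00706% of all genes (Scrib alone), and the lowest adjusted p of the 53 was 0.742. DESeq2's Wald test and limma-voom also called 0 of the 53, while calling 0.381% (DESeq2, before the low-count filter), 0.445% (DESeq2, on the filtered genes) and 0.0565% (limma-voom) of all genes. At an unadjusted p under 0.05, 8 mitotic genes were higher and 0 lower. Of all 14169 genes tested, 219 (1.55%) were higher and 717 lower at that level. Without T91 the count of higher mitotic genes was 33 (of all genes, 7.01%), and without T113 or without T118 it was 0. For the fits without T113 or without T118 the share of all genes was not computed, so this 0 has no share beside it. Without T118 the fitted value was above 0 for 42 of 53 genes, and without T91 or without T113 for 51. For 17 genes all 3 Scrib libraries lay above all 3 Renilla libraries, as they did for 2.6% of all genes tested.

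Lines contributed unequally. The Scrib library was above its control for 31 of 53 genes in T91 (median log2 ratio 0.05), for 50 in T113 (0.18) and for 52 in T118 (0.27), while the median over all genes tested was within 0.01 of 0 in each line. The exceptions were Cdc25b, Smc4 and Ncapg in T113 and Pttg1 in T118. In all 3 lines together 29 genes were higher and 0 were lower, and 14.7% of all genes tested were higher in all 3. Summed over the 53 genes, CPM changed by -1.59% in T91 (9097 to 8952), by 13.8% in T113 (8653 to 9845) and by 22.4% in T118 (8430 to 10320). The controls of T113 and T118 were each the lowest of the 6 libraries for 20 genes, and the Scrib libraries of T118 and T113 were the highest for 23 and 17. Whether the ratio differs between lines was not tested, since 1 library per line and hairpin leaves no replicates for it.

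**Figure D1:**
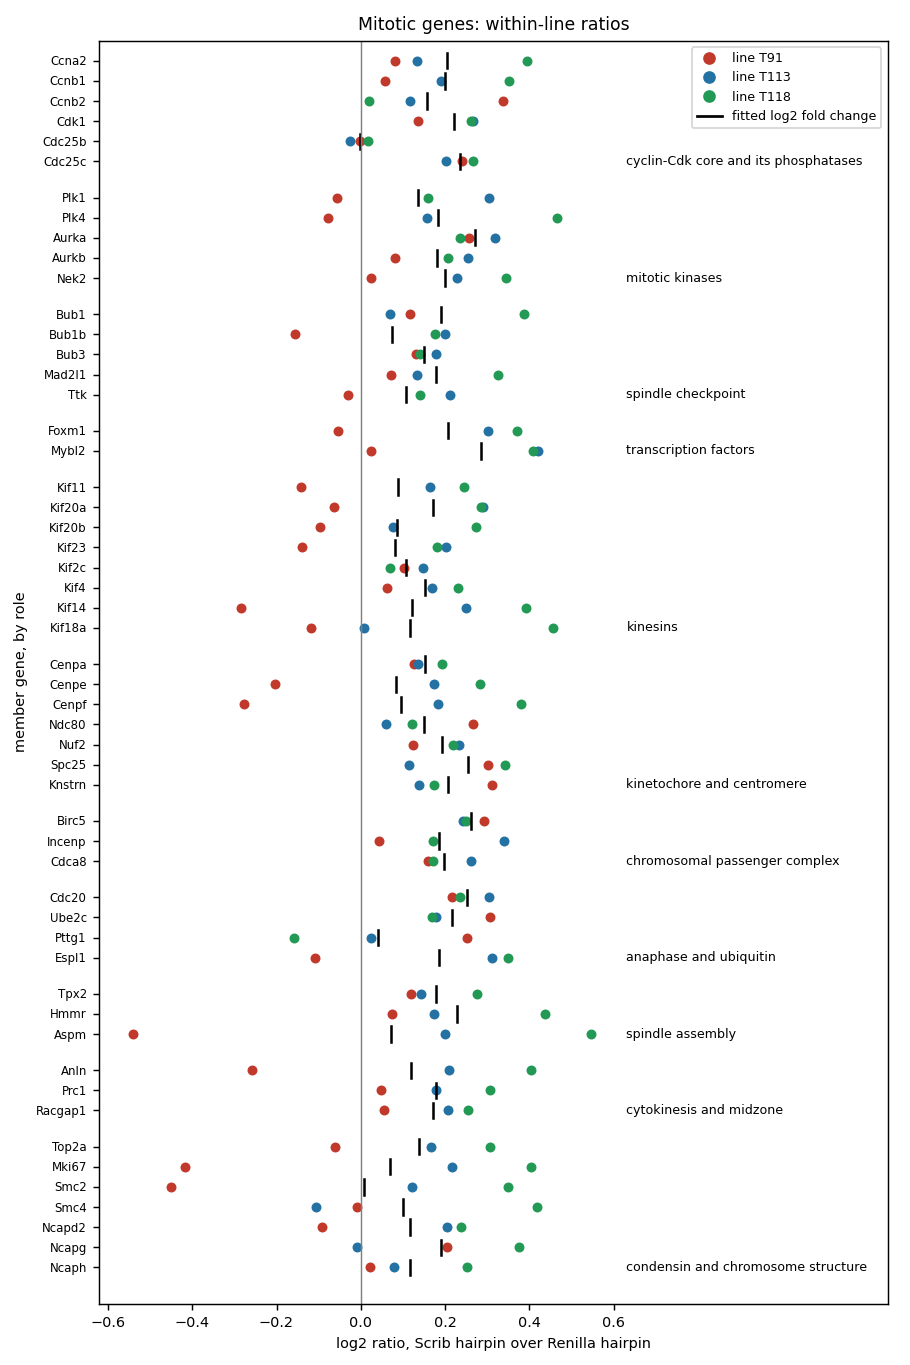
Log2 ratio of the Scrib to the Renilla hairpin (x axis) for each of the 53 mitotic genes (y axis, grouped by role), with a point for each line and a black bar for the fitted log2 fold change. Points lie to the right of 0 for 31 (T91), 50 (T113) and 52 (T118) genes, and the points farthest to the left are Aspm, Smc2 and Mki67 in T91.

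Among the cyclins, Cdk1 and its activating phosphatases, 5 of 6 genes were above 0, with a median log2 fold change of 0.20. Cdk1 (ENSMUSG00000019942, chr10:69335146-69352938, minus strand), the kinase that drives mitotic entry, was at 245, 203 and 218 CPM with the Renilla hairpin and at 269, 244 and 262 CPM with the Scrib hairpin (T91, T113 and T118 in this order throughout). Within each line the Scrib library was the higher one, and the hairpin groups overlapped only through the T91 control (log2 fold change 0.22 with standard error 0.09, adjusted p of 0.753 by edgeR). Cdc25c, a phosphatase that activates Cdk1, was at 39.4, 49.97 and 39.5 CPM and at 46.6, 57.5 and 47.5 CPM, with close ratios of 0.24, 0.20 and 0.27 and hairpin groups that overlapped because T113 was high with either hairpin (log2 fold change 0.24 with standard error 0.09). Its relative Cdc25b, at 121, 150.1 and 138 CPM and at 121, 147 and 139.7 CPM, was level within each line. Cdc25b was the only gene of the 53 with a fitted value below 0, with a 95% interval of -0.21 to 0.21, and its value was 0.01 without T113. For Ccna2, Ccnb1 and Ccnb2, the A-type and B-type cyclins that bind Cdk1, log2 fold changes were 0.20, 0.20 and 0.16, and in each the 3 Scrib libraries lay above the 3 controls.

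All 5 mitotic kinases were above 0, with a median of 0.18. Aurka (ENSMUSG00000027496, chr2:172356190-172370535, minus strand), the centrosomal kinase of spindle assembly, had the smallest p of the 53 genes. It was at 122, 105 and 123 CPM with the Renilla hairpin and at 145, 132 and 145 CPM with the Scrib hairpin, and the groups did not overlap. Its log2 fold change was 0.27 (95% interval 0.06 to 0.48, adjusted p of 0.742 by edgeR), from 117 ± 9.81 CPM with the Renilla hairpin against 141 ± 7.86 CPM for the Scrib hairpin (mean and SD, n = 3 each). Aurkb, the kinase of the chromosomal passenger complex, was at 121, 119 and 112 CPM and at 128, 142 and 129 CPM (log2 fold change 0.18 with standard error 0.09). Nek2, a kinase of centrosome separation, was at 157, 153 and 159 CPM and at 159.6, 179 and 201 CPM (log2 fold change 0.20 with standard error 0.10). Neither kinase overlapped between hairpins, and the T91 ratio of Nek2 was only 0.03. The polo-like kinases split by line: ratios were -0.06, 0.30 and 0.16 for Plk1, which acts throughout mitosis. For Plk4, which drives centriole duplication, they were -0.08, 0.16 and 0.46.

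The 5 spindle checkpoint genes had a median of 0.15, all above 0, and 0 of them had an unadjusted p under 0.05. Among all genes tested, 1.55% were higher at that level. Bub1, a checkpoint kinase at kinetochores, was at 103, 103 and 90.1 CPM with the Renilla hairpin and at 111, 108 and 117.8 CPM with the Scrib hairpin (log2 fold change 0.19 with standard error 0.10). Mad2l1, which binds and inhibits Cdc20, was at 109, 94.8 and 100.4 CPM and at 115, 104 and 126 CPM (log2 fold change 0.18 with standard error 0.10). Bub3, which brings Bub1 to kinetochores, was at 154, 135 and 152 CPM and at 169, 153 and 167 CPM (log2 fold change 0.15 with standard error 0.09). For these 3 genes each Scrib library lay above the control of its line, and only Bub1 had groups without overlap. Ratios of Bub1b, a subunit of the checkpoint's inhibitory complex, were -0.16, 0.20 and 0.18. Those of the checkpoint kinase Ttk were -0.03, 0.21 and 0.14, so that both were low in T91 alone.

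Both transcription factors were near or below their control in T91 and above it in the other lines. Mybl2 (ENSMUSG00000017861, chr2:163054687-163084688, plus strand) was at 143, 114 and 152 CPM with the Renilla hairpin and at 145, 152 and 201 CPM with the Scrib hairpin, with ratios of 0.02, 0.42 and 0.41. Its log2 fold change of 0.28 was the highest of the 53 (95% interval 0.01 to 0.56, adjusted p of 0.753 by edgeR), from 136 ± 19.8 CPM with the Renilla hairpin against 166 ± 30.5 CPM for the Scrib hairpin (mean and SD, n = 3 each). Without T91 it was 0.41, with an adjusted p of 0.0776 by edgeR. Without T113 and without T118 it was 0.22 in each case, with unadjusted p of 0.28 and 0.15 by edgeR. Mybl2 did not pass the adjusted test in any of these fits. Foxm1 was at 159, 138 and 126 CPM and at 153, 170.3 and 163 CPM, with ratios of -0.05, 0.30 and 0.37 (log2 fold change 0.21 with standard error 0.11). The hairpin groups overlapped for both genes, Mybl2 because T118 stood high with either hairpin and Foxm1 through the T91 control. Of the 31-base words in Mybl2 transcripts 21% also occur in other genes, chiefly the pseudogene Gm3320, which had 182 counts over all libraries.

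**Figure D2:**
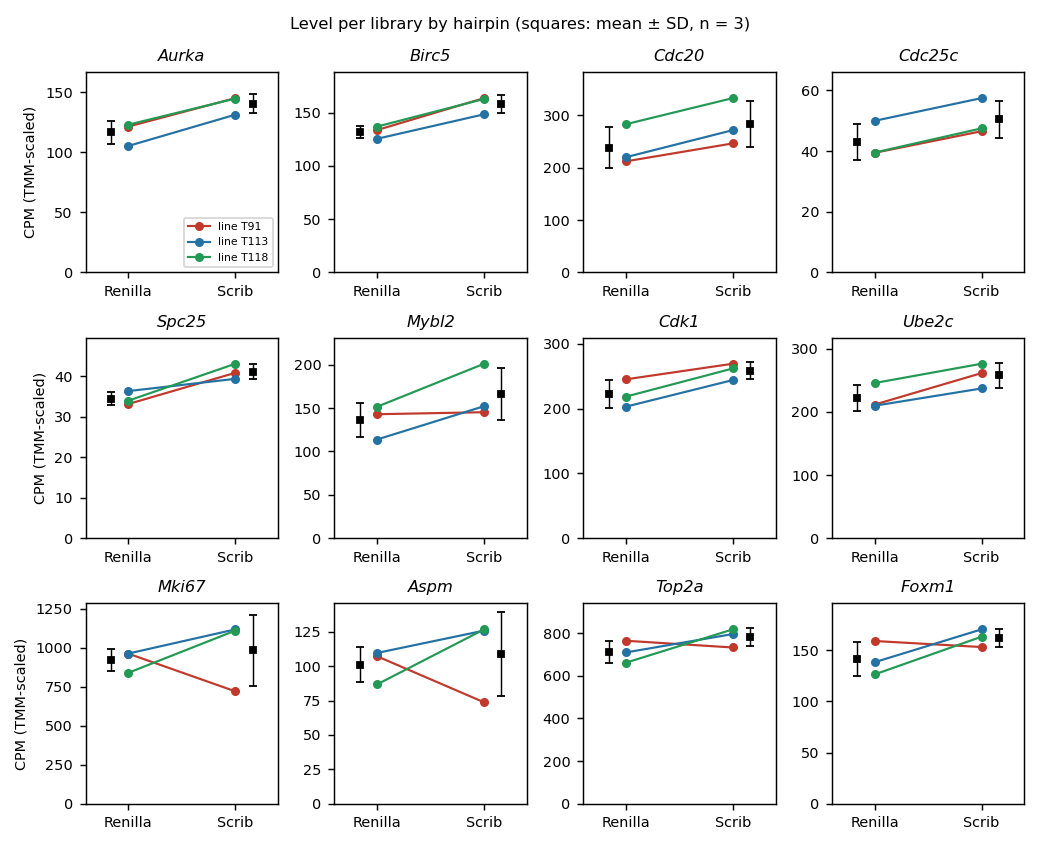
TMM-scaled CPM (y axis, from 0) of 12 mitotic genes with the Renilla and the Scrib hairpin (x axis), with coloured lines joining the libraries of each organoid line and black squares for the mean with its SD over 3 libraries. The 8 genes from Aurka to Ube2c had an unadjusted p under 0.05, and in Mki67, Aspm, Top2a and Foxm1 the T91 line slopes down while T113 and T118 slope up.

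All 7 kinetochore and centromere genes were above 0, with a median of 0.15. Spc25, a subunit of the Ndc80 complex that holds microtubules, was at 33.1, 36.3 and 33.9 CPM with the Renilla hairpin and at 40.8, 39.3 and 43.0 CPM with the Scrib hairpin, without overlap (log2 fold change 0.25 with standard error 0.10, adjusted p of 0.748 by edgeR). Nuf2, of the same complex, was at 58.7, 50.9 and 53.4 CPM and at 64.1, 59.8 and 62.2 CPM (log2 fold change 0.19 with standard error 0.09). Knstrn, a kinetochore and spindle adaptor, was at 132, 133 and 122 CPM and at 163, 146 and 138 CPM (log2 fold change 0.21 with standard error 0.09). Neither Nuf2 nor Knstrn overlapped between hairpins. For Ndc80 itself the ratios were 0.27, 0.06 and 0.12, and for Cenpa, the centromeric histone H3 variant, 0.13, 0.14 and 0.19. In the other two, both very long transcripts, T91 was below its control: ratios were -0.20, 0.17 and 0.28 for the motor protein Cenpe and -0.28, 0.18 and 0.38 for Cenpf.

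All 8 kinesins were above their control in T113 and in T118, but only Kif2c and Kif4 were so in T91, where the median ratio of the 8 was -0.11. Their median fitted value was 0.11, all 8 were above 0, and 0 had an unadjusted p under 0.05. Among all genes tested, 1.55% were higher at that level. Kif4, a chromosome-bound motor, was at 93.0, 92.7 and 89.2 CPM with the Renilla hairpin and at 97.0, 104 and 105 CPM with the Scrib hairpin (log2 fold change 0.15 with standard error 0.09). Kif2c, a microtubule depolymerase of centromeres, was at 69.4, 70.8 and 69.2 CPM and at 74.5, 78.3 and 72.6 CPM (log2 fold change 0.11 with standard error 0.09). In both the groups did not overlap but lay only a few CPM apart. Kif20a, a motor of the central spindle, was at 179, 196 and 156 CPM and at 172, 239 and 189.7 CPM, with T91 alone below its control (log2 fold change 0.17 with standard error 0.11). Exons of Cdc23 on the other strand cover 29.3% of the exons of Kif20a. Cdc23 had 13971 counts over all libraries, and whether counting used strand is not given in the sources used here. Kif11, the motor that separates spindle poles, had ratios of -0.14, 0.16 and 0.24, and Kif14, a motor of cytokinesis, ratios of -0.28, 0.25 and 0.39.

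The chromosomal passenger complex and the anaphase genes had the highest median ratios in T91 of all role groups, 0.16 and 0.23. Of these genes, Birc5, Cdca8, Cdc20, Ube2c and Pttg1 are among the 18 mitotic genes with the shortest transcripts (1531 to 3358 bases). Incenp and Espl1 are not. Protein-coding genes with short transcripts had a median ratio of 0.17 in T91. The part of transcript length in this ranking was not tested. Birc5 (ENSMUSG00000017716, chr11:117849251-117855743, plus strand), which encodes the passenger protein survivin, was at 134, 125 and 137 CPM with the Renilla hairpin and at 164, 148 and 163 CPM with the Scrib hairpin. The groups did not overlap, and ratios of 0.29, 0.24 and 0.25 were nearly equal across lines (log2 fold change 0.26 with standard error 0.09, adjusted p of 0.744 by edgeR). Cdca8, which encodes borealin, was at 133, 104 and 114 CPM and at 149, 125 and 129 CPM (log2 fold change 0.20 with standard error 0.09), each line being higher with the Scrib hairpin. Incenp, the scaffold of the complex, had ratios of 0.04, 0.34 and 0.17. All 3 genes of the complex were higher in all 3 lines.

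Cdc20 (ENSMUSG00000006398, chr4:118432901-118437352, minus strand), the activator of the anaphase-promoting complex, was at 212, 220.0 and 283 CPM with the Renilla hairpin and at 246, 272 and 333 CPM with the Scrib hairpin. The T118 control exceeded the Scrib libraries of the other lines, so the groups overlapped although ratios were 0.22, 0.30 and 0.23 (log2 fold change 0.25 with standard error 0.09, adjusted p of 0.745 by edgeR). Ube2c, the ubiquitin-conjugating enzyme of that complex, was at 212, 209.8 and 246 CPM and at 262, 237 and 276 CPM, again with overlap through the T118 control (log2 fold change 0.22 with standard error 0.09). Separase, encoded by Espl1, had ratios of -0.11, 0.31 and 0.35. Its inhibitor securin, encoded by Pttg1, was at only 9.35, 12.6 and 8.91 CPM and at 11.1, 12.8 and 7.98 CPM and was the single gene of the 53 below its control in T118. Sequence is shared with other genes for 25.5% of 31-base words in Cdc20 and 27.7% in Ccnb1, chiefly with the pseudogenes Gm7856 and Ccnb1-ps, which had 8 and 27 counts over all libraries. Exons of Tnnc2 on the other strand cover 22.8% of those of Ube2c, and Tnnc2 had 3 counts over all libraries.

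The 6 genes of spindle assembly and cytokinesis were all above 0. Hmmr, a spindle protein, was at 133, 126 and 127 CPM with the Renilla hairpin and at 139.8, 142 and 172 CPM with the Scrib hairpin, without overlap (log2 fold change 0.23 with standard error 0.11). Tpx2, the activator of the Aurora A kinase, was at 217, 185 and 183 CPM and at 236, 205 and 222 CPM, with overlap through the T91 control (log2 fold change 0.18 with standard error 0.09). Prc1, which bundles microtubules of the midzone, was at 205, 193 and 184 CPM and at 212, 219 and 227 CPM (log2 fold change 0.18 with standard error 0.10). It did not overlap between hairpins and its ratio was smallest in T91. Racgap1, a regulator of the cleavage furrow, was at 228, 187 and 196 CPM and at 237, 216 and 233 CPM, with overlap (log2 fold change 0.17 with standard error 0.09). Aspm, an organiser of spindle poles, had the largest standard error of the 53 (0.20) and was at 107, 109.6 and 86.7 CPM and at 73.7, 126 and 127 CPM. Its Scrib library was the lowest of the 6 in T91 and the highest of the 6 in T118, with ratios of -0.54, 0.20 and 0.55.

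Condensins and other chromosome proteins included several of the lowest ratios in T91. Top2a, the topoisomerase that untangles sister chromatids, was at 765, 709.7 and 662 CPM with the Renilla hairpin and at 733, 796 and 818 CPM with the Scrib hairpin (log2 fold change 0.14 with standard error 0.11). Mki67, the proliferation marker that coats mitotic chromosomes, was at 963, 963 and 839.7 CPM and at 721, 1118 and 1111 CPM, with ratios of -0.42, 0.22 and 0.40. Smc2, a core subunit of condensin, was at 193, 185 and 169.6 CPM and at 141, 201 and 216 CPM, with ratios of -0.45, 0.12 and 0.35. In these 3 genes the T91 library with the Scrib hairpin was below its control and the other Scrib libraries above theirs, and the fitted values of Mki67 and Smc2 came to 0.07 and 0.01. Ncapg, a subunit of condensin I, was at 89.5, 92.0 and 76.5 CPM and at 103, 91.5 and 99.2 CPM, level in T113 and higher in the other lines (log2 fold change 0.19 with standard error 0.11).

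The ratios within T91 went with transcript length, among mitotic genes as among all genes. Across 12257 protein-coding genes, the Spearman correlation of the ratio with the length of the longest annotated transcript was -0.561, -0.0744 and 0.181 in T91, T113 and T118, and across the 53 mitotic genes it was -0.617, -0.0487 and 0.485. These are correlations across genes of the same libraries, which are not independent replicates. Of the 18 mitotic genes with the shortest transcripts (1531 to 3358 bases) 15 were above their control in T91, and of the 18 with the longest (4475 to 11130 bases) 4 were. In T113 and in T118 these counts were 17 and 18. Median ratios of the short and the long mitotic genes in T91 were 0.13 and -0.11. For short and long protein-coding genes in general they were 0.17 and -0.22. In T91 the short mitotic genes were thus not above short genes in general, and the long ones were less low than long genes. The corresponding mitotic medians were 0.20 and 0.18 in T113 (all genes 0.02 and -0.03) and 0.22 and 0.34 in T118 (all genes -0.07 and 0.06). When a smooth trend of each library on transcript length was removed, an alternative added after these ratios were seen, T91, T113 and T118 had 39, 49 and 52 mitotic genes above their control. The median log2 fold change was then 0.17, 20 of the 53 had an unadjusted p under 0.05 and were higher (1.7% of all genes tested), and 0 passed the adjusted test in edgeR. Aspm, Mki67 and Cenpf, which have long transcripts, rose to 0.19, 0.19 and 0.23 in that fit. Aurka, Cdc20 and Ccnb2, which have short ones, fell from 0.27, 0.25 and 0.16 to 0.22, 0.20 and 0.095. Without T91 the median of the 53 was 0.23.

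**Figure D3:**
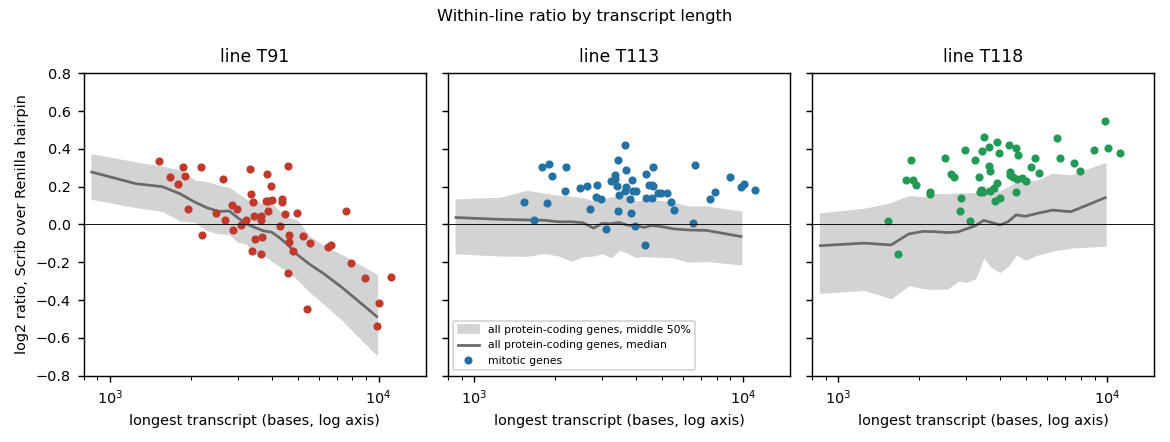
Log2 ratio of the Scrib to the Renilla hairpin (y axis) against the length of the longest annotated transcript (x axis, log scale) in each line, with points for the 53 mitotic genes, a grey line for the median of protein-coding genes by length and a grey band for their middle 50%. In T91 both the points and the grey line fall with length (Spearman -0.617 and -0.561), and in T113 and T118 most points lie above the grey line.

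Genes of the same pathway outside the 53 had small values, mostly of the same sign. Over 6 further lists with 114 measured genes, 100 were above 0 (48.2% of all genes tested), with a median log2 fold change of 0.11. At an unadjusted p under 0.05 there were 7 higher and 0 lower genes. Of all 14169 genes tested, 219 (1.55%) were higher and 717 lower at that level. Counts above 0 were 27 of 28 for other kinetochore genes, 22 of 25 for centrosome genes, 21 of 22 for other condensin, exit and cytokinesis genes and 15 of 17 for the anaphase-promoting complex. They were 9 of 13 for cohesin and its regulators and 6 of 9 for other kinesins. Troap, a spindle-associated protein, was at 40.9, 38.7 and 41.4 CPM and at 42.2, 56.3 and 55.0 CPM and had the highest log2 fold change of these lists (0.33, standard error 0.12). The kinetochore genes Cenpm and Ska1 had 0.32 and 0.32. Cks1b, a Cdk-binding protein, had 0.24, Ckap2, a microtubule-associated protein, 0.25, and Ube2s, which extends the ubiquitin chains begun by Ube2c, 0.22. Values were 0.21 for Anapc7 of the anaphase-promoting complex, 0.20 for Haus4 of the augmin complex, and 0.20 and 0.19 for the kinesins Kifc1 and Kif22. The cohesin protectors Sgo2a and Sgo1 had 0.20 and 0.13, but the cohesin list had a median ratio of -0.20 in T91, against 0.10 in T113 and 0.21 in T118. None of these genes passed the adjusted test in edgeR, where the lowest adjusted p of the 6 lists was 0.748.

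DNA replication and S-phase genes were above 0 as well. All 40 had a positive log2 fold change, with a median of 0.19 and median ratios of 0.02, 0.26 and 0.27 (mitotic genes 0.05, 0.18 and 0.27), and their summed CPM changed by -0.75%, 20.99% and 22.9%. E2f2, an activator of S-phase genes, and Cdc45, a part of the replicative helicase, had the smallest p of this list, with 0.26 and 0.24. G1 cyclins, their kinases and inhibitors were split, with 10 of 19 above 0 and a median of 0.01. In that list Cdkn1a, which encodes the Cdk inhibitor p21, was at 21.9, 46.9 and 46.8 CPM with the Renilla hairpin and at 24.2, 20.7 and 11.2 CPM with the Scrib hairpin. Ratios of Cdkn1a were 0.14, -1.18 and -2.06, negative in T113 and T118, and its fitted value of -1.03 did not pass (standard error 0.47, adjusted p of 0.776 by edgeR). Cdkn2c, which encodes the inhibitor p18, had a log2 fold change of 0.27 with ratios of 0.21, 0.29 and 0.29. Differences between lists were not tested.

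**Figure D4:**
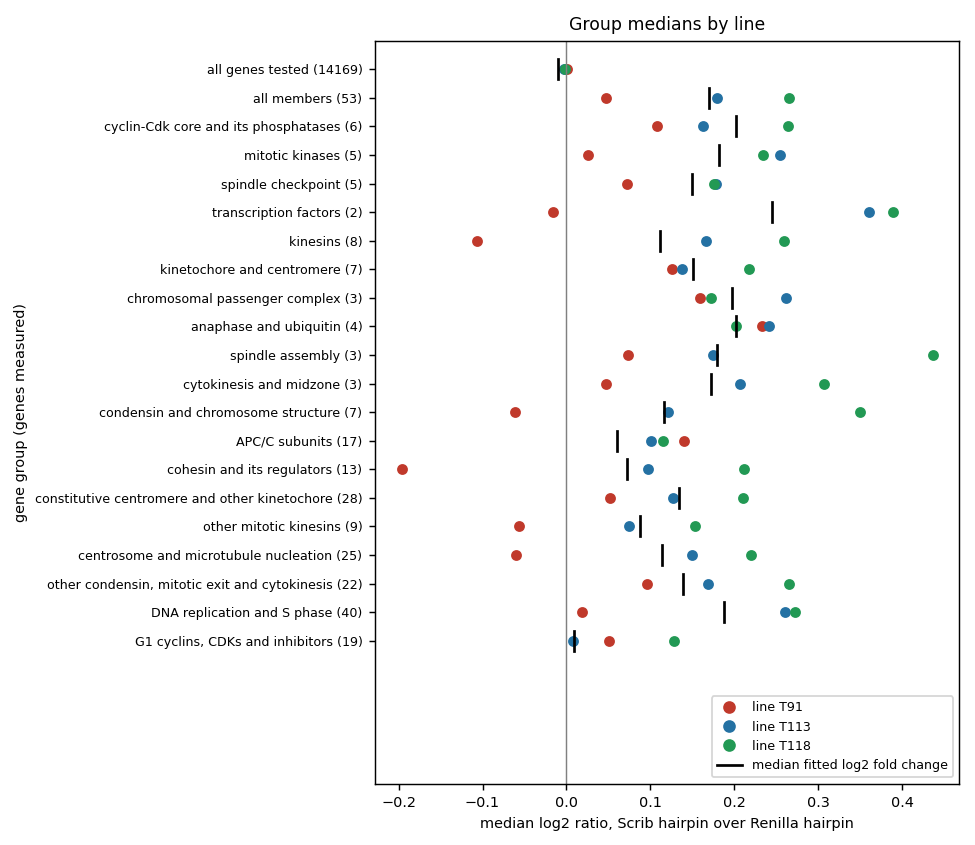
Median log2 ratio of the Scrib to the Renilla hairpin (x axis) by line for all genes tested, the 53 mitotic genes (all members), their 11 role groups and 8 further lists (y axis, with the number measured), with black bars for the median fitted log2 fold change. All genes lie within 0.01 of 0 in each line, and in most groups T91 is the leftmost point and T118 the rightmost.

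Markers of other cell types also differed between lines. Fibroblast markers summed to 1.204 to 1.74 CPM in controls and 1.51 to 7.91 CPM with the Scrib hairpin, with 7 of 10 higher in sum and Lum at 0 in all libraries. This difference lay mainly in T91 (1.204 and 7.91 CPM), where the mitotic ratios were smallest. Immune markers summed to 3.41 to 4.60 CPM and 2.28 to 6.41 CPM, again with the highest sum in T91. Cd68 was the most abundant of them and went from 3.01 to 3.66 CPM in T91. There Lyz2 went from 0.10 to 1.12 CPM and C1qa from 0.03 to 0.75 CPM, while Ptprc fell from 0.10 to 0.04 CPM. Acinar markers stayed at or below 0.856 CPM, with 3 of 8 at 0 throughout, and endothelial markers at or below 1.64 CPM, with Erg at 0. Neural and Schwann markers, nearly all Mbp, summed to 75.4 to 104 CPM in controls and 72.5 to 107.9 CPM with the Scrib hairpin, with Sox10 at 0, and endocrine markers to at most 1.64 CPM, with Ins1 and Ins2 at 0. The epithelial list was at 9292 and 10313 CPM in T91 with the Renilla and the Scrib hairpin, at 8149 and 7477 CPM in T113 and at 12716 and 9762 CPM in T118. The part of these markers in the mitotic ratios was not tested.

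Between the lines themselves mitotic genes were rarely called. Of the 53 genes 0 passed an adjusted p of 0.05 in edgeR's F-test of line, which 14% of all genes tested passed, and limma-voom also called 0. At an unadjusted p under 0.05 there were 6 of the 53, where 29.5% of all genes tested reached that level. Cdc20 had the smallest adjusted p by edgeR, 0.079, and its level in T118 exceeded that in T91 by 0.42 and that in T113 by 0.33 on the log2 scale. Ncapd2, a subunit of condensin I, was at 281, 261 and 191 CPM with the Renilla hairpin and at 263, 300.4 and 226 CPM with the Scrib hairpin, lowest in T118 with either hairpin (adjusted p of 0.117 by edgeR). Anln, an actin-binding protein of the cleavage furrow, was at 237, 178 and 249.8 CPM and at 198, 206 and 331 CPM, highest in T118 with either hairpin (adjusted p of 0.124 by edgeR). Cdc25c was highest in T113 with either hairpin (adjusted p of 0.146 by edgeR). With the length trend removed, Cdc20, Anln and Ncapd2 (3 of 53) passed between lines, as did 18.4% of all genes, and without the low-count filter Anln did (1 of 53), as did 10.8% of all genes. Over the 53 genes, the highest of the 6 libraries exceeded the lowest by a factor of 1.13 to 1.86, with a median of 1.33.

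Levels were compared between genes only per length, as mean CPM per kilobase of the longest annotated transcript, which need not be the transcript expressed. On that scale Cdc20 (146), Top2a (143), Ccna2 (114), Ube2c (109.7) and Ccnb2 (109) had the highest levels, and Kif18a (4.82), Pttg1 (6.25), Kif14 (6.86) and Aspm (10.6) the lowest. Outside the 53, genes with a closely similar profile were Mllt1 and Itfg2, whose log2 CPM had Pearson correlations of 0.985 and 0.977 with the mean z-score of the 53 genes over 6 libraries. These are descriptions, since the libraries form 3 pairs from the same lines and the genes were picked for the correlation. Among the 53 genes themselves the correlation with that mean, which includes each gene, had a median of 0.696, and the lowest was -0.099.

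The standard error of the log2 fold change was between 0.09 and 0.20 over the 53 genes, and the 95% interval had a median half-width of 0.24. This interval held 0 for 45 genes. Its upper bound exceeded 0.5 for Mybl2 and Aspm only, with 0.57 as the highest bound.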

How the data were processed

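RNA of 6 organoid libraries (3 lines, each with a Renilla and a Scrib hairpin) was sequenced after mRNA library preparation, per the labels' protocols. The authors deposited estimated counts per gene for each library, for which the submitters' processing notes list Salmon 1.4.0, DESeq 2 and the build GRCm38/mm10. Which annotation was used, and whether strand was, the sources used here do not give. Libraries hold 24035265 to 36235481 counts. All columns were used.

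Deposited values were rounded to integers before use in R 4.3.3. Symbols, positions and transcript lengths came from GENCODE M21 (54200 of 54453 identifiers matched). Genes were kept by filterByExpr with a minimum count of 10, which left 14169 genes and 99.8% or more of each library's counts. edgeR 4.0.16 (TMM scaling, robust quasi-likelihood F-test, two-sided, Benjamini-Hochberg over all genes tested, threshold 0.05) was fitted to all 6 libraries with hairpin and line as terms. The fit had 2 residual degrees of freedom, a median prior of 4.43 and a biological coefficient of variation of 15.5%. With line as a term, p-values of the hairpin rest on how the difference between hairpins varied over 3 lines, with a prior taken from all genes. They do not measure the spread in level between lines. Nothing in the labels says how many cultures a library holds. CPM were TMM-scaled, except marker sums, and log2 ratios used a prior count of 2.

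Line was kept as a replicate block because each line received both hairpins. The libraries of a line deviated together from the hairpin means, with correlations of 0.621, 0.666 and 0.662 in T91, T113 and T118.

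Members and gene lists were chosen with earlier results of these data known. Values in every library are given for Scrib, the 2 or 3 genes of each role with the smallest p, the genes with the lowest and the highest log2 fold change, both transcription factors and the 4 genes with the smallest p in the test of line. From each other list up to 2 genes with the smallest p are named, and of similar profiles the top 3 with an average log2 CPM of at least 2, of which 1 is not reported here. Other genes named were chosen after their values were seen. Role groups are described by counts and medians without a test. Scripts were tested on simulated data. Alternatives were DESeq2 1.42.0 (before the filter and, added later, on the filtered genes), limma 3.58.1 (voom), other scalings and filters, non-robust dispersions, no block, leaving out each line and, added after the ratios were seen, removal of a trend on transcript length. Promoters came from RefSeq (GRCm38.p6), where 8 of the 53 genes had no entry.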

Additional observations from a re-analysis of the deposited data

Results flagged for a closer look

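In 3 role groups the median ratio lay on opposite sides of 0 in different lines. Kinesins had a median log2 ratio of -0.107 in T91, against 0.17 in T113 and 0.26 in T118. Condensin and chromosome structure genes had -0.0611 in T91, against 0.12 and 0.35. The 2 transcription factors had -0.0157 in T91, against 0.36 and 0.39, with Mybl2 above and Foxm1 below its control in T91. These differences between lines were not tested, since each line had 1 library per hairpin. Ratios in T91 also fell with transcript length, over all protein-coding genes (Spearman -0.561) and over the 53 (-0.617). The part of transcript length in these group medians was not tested.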

How the results depend on the processing

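The 53 mitotic genes kept a median log2 fold change between 0.11 and 0.23 under every alternative run, and 0 of them passed the adjusted test of the hairpin in any. Without the replicate block, that is unpaired, 3 of the 53 were higher at an unadjusted p under 0.05, compared with 8 in the paired fit, the median was 0.17 and Scrib alone was called, so no call changed. The count of 8 was 4 without the low-count filter, 20 with the length trend removed and 0 to 33 when a line was left out (33 without T91). Shares of all genes higher at that level were computed only for the main fit (1.55%), without T91 (7.01%) and with the length trend removed (1.7%). Over all genes, the 1 call became 64 without the low-count filter, 60 with DESeq2 on the unfiltered genes, 63 with DESeq2 on the filtered genes (added after the results were seen), 8 with limma-voom and 9 to 94 when a line was left out. In the test of line, 0 of 53 mitotic genes and 1989 of all genes were called, against 1 and 2966 without the low-count filter and 3 and 2612 with the length trend removed.

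Of 689 fitted values of single mitotic genes under the alternatives, 673 kept their direction. The other 16 reversed. When a line was left out, log2 fold changes ranged from -0.17 to 0.3725 for Aspm, from -0.1657 to 0.2357 for Smc2, from -0.1033 to 0.3097 for Mki67, from -0.06105 to 0.2077 for Smc4, from -0.05643 to 0.2333 for Kif18a, from -0.0498 to 0.2812 for Cenpf, from -0.02663 to 0.307 for Anln, from -0.01737 to 0.2279 for Cenpe, from -0.01669 to 0.321 for Kif14 and from -0.01202 to 0.1758 for Kif20b, in each case lowest without T118. They ranged from -0.0643 (without T91) to 0.1332 for Pttg1 and from -0.01618 to 0.01148 (without T113) for Cdc25b. Smc2 and Mki67 also reversed without T113, to -0.04584 and -0.003705. Pttg1 had -0.01963 with the length trend removed, and Smc2 -0.011 without the low-count filter. The scalings moved the median of all genes by less than 0.02.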
